A study of Mus musculus with 4 samples.

Results

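Osteoblast transcription factors are the nuclear proteins that commit a mesenchymal cell to bone formation. The 8 genes described here, Runx2, Sp7, Dlx3, Dlx5, Dlx6, Msx1, Msx2 and Atf4, were taken by symbol from the 21881 gene symbols of the deposited FPKM table. All 8 were present, and 7 averaged 1 FPKM or more in the 4 libraries and were tested among 11346 genes. Dlx3 was below that level and was not tested. FPKM scales the reads of a gene by its transcript length and by the library's mapped reads, so levels can be set side by side between genes.

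The libraries were 2 with NR6A1 and 2 with vector, all from mouse lines of mesenchymal stem cells, marrow stromal cells with the potential to become bone, cartilage or fat. Clone 6 and clone 12 are immortalised C57BL/6 lines, each grown from a single cell and carrying a floxed but intact Dicer gene (Dicer f/f). The NR6A1 libraries came from cells infected with a puromycin-resistant pMMP-puro retrovirus for Flag-HA-NR6A1, a tagged form of an orphan nuclear receptor (also called GCNF) that represses target genes in embryos and germ cells. The vector libraries came from the same lines infected with the empty virus. With 1 library for each clone and virus, a p-value measures how alike the clones or viruses behaved and not the spread between repeat cultures. Nr6a1 was at 783 and 598 FPKM in the NR6A1 libraries of clone 6 and clone 12, against 4.18 and 2.80 FPKM in the vector libraries. Depth inferred from the steps between low values was 20.4 to 24.1 M reads a library. Of 12 stromal markers, Thy1 was at or below 0.0297 FPKM and Lepr at or below 0.0703 FPKM in every library. Cd44 was at 48.6 to 73.8 FPKM and Itgb1 at 277 to 326 FPKM. Of the 10 tested, 3 were called higher and 2 lower in clone 12, beside 11.5% and 10.5% of all genes. Ly6a, picked with its values known, was at 125 FPKM with NR6A1 and 317 FPKM with vector in clone 12. In clone 6 Ly6a was at 9.31 FPKM with NR6A1 and 19.0 FPKM with vector. Markers of blood cells (summed level at most 0.0821 FPKM), endothelium (at most 0.179 FPKM) and osteoclasts (at most 0.851 FPKM) were near 0 in all libraries.

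Runx2 is a runt-domain factor without which no osteoblasts form, and Sp7, also called osterix, is a zinc-finger factor needed after Runx2 in the same lineage. Dlx3, Dlx5 and Dlx6 are homeodomain activators of bone genes, and the related homeodomain proteins Msx1 and Msx2 are known as repressors that can pair with Dlx proteins. Atf4 encodes a leucine-zipper factor that osteoblasts need for collagen production and amino acid import and whose output is set largely by translation.

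The clones were compared first. In clone 12, Runx2, Msx1 and Atf4 were the members above 10 FPKM, while Sp7 and Dlx3 were below 0.5 FPKM. In clone 6, Atf4, Sp7, Dlx5, Runx2 and Dlx6 were all above 10 FPKM. All 7 tested members differed between the clones (limma adjusted p from 0.00544 to 0.0446), 5 lower and 2 higher in clone 12. Over all genes 21.9% were called between the clones, 10.5% lower and 11.5% higher in clone 12. The libraries of clone 12 lay outside the range of clone 6 for all 7 members, which held for 68.0% of the genes tested. The members were proposed with such results in view, so their count is a description.

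Sp7 had the widest gap. It was at 0.294 FPKM with NR6A1 and 0.459 FPKM with vector in clone 12, against 50.6 FPKM with NR6A1 and 120.1 FPKM with vector in clone 6. Sp7 was therefore close to silent in clone 12 and abundant in clone 6. On the log2(FPKM + 1) scale, which understates the gap of low genes, clone 12 minus clone 6 was -5.85 ± 0.28 (SE, limma adjusted p = 0.00917), the seventh in size of the 11346 differences. The plain ratio of FPKM was 172-fold lower in clone 12 between the NR6A1 libraries and 262-fold lower between the vector libraries. At the inferred depths the clone 12 values stood for about 16.0 to 17.4 reads with NR6A1 and 28.0 to 30.3 with vector, so Sp7 was read in that line.

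The Dlx genes followed the same order. Dlx5 was at 2.56 FPKM with NR6A1 and 4.11 FPKM with vector in clone 12, against 33.2 FPKM with NR6A1 and 62.9 FPKM with vector in clone 6. Its difference, clone 12 minus clone 6, was -3.45 ± 0.12 log2 units (SE, limma adjusted p = 0.00544). Dlx6, the neighbour of Dlx5 on chromosome 6, was at 1.45 FPKM with NR6A1 and 2.54 FPKM with vector in clone 12, against 11.1 FPKM with NR6A1 and 23.5 FPKM with vector in clone 6. The Dlx6 difference was -2.54 ± 0.16 log2 units (SE, limma adjusted p = 0.0120). Both genes of the cluster were thus low but read in clone 12, with about 25.9 reads behind the lowest Dlx6 value. Dlx5 exceeded Dlx6 in every library, by 1.76 times with NR6A1 and 1.62 times with vector in clone 12, and by 2.99 times with NR6A1 and 2.68 times with vector in clone 6.

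Dlx6 is spanned by the long non-coding RNA gene Dlx6os1, and no strand setting is given in the sources used here, so reads of the overlap cannot be assigned with certainty. Of 4 antisense or overlapping RNAs in the table, Dlx6os1 alone averaged 1 FPKM. Dlx6os1 was lower than Dlx6 in each library, at 0.232 FPKM with NR6A1 and 0.461 FPKM with vector in clone 12 and at 1.10 FPKM with NR6A1 and 2.38 FPKM with vector in clone 6. Dlx3 was hardly read in either line. It was at 0.0202 FPKM with NR6A1 and listed at 0 with vector in clone 12, against 0.177 FPKM with NR6A1 and 0.179 FPKM with vector in clone 6. These values stood for about 1.0 and 0.0 reads in clone 12 and 8.9 and 10.4 reads in clone 6, too few to compare.

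Runx2 was well above 10 FPKM in both lines and lower in clone 12. It was at 17.4 FPKM with NR6A1 and 17.9 FPKM with vector in clone 12, against 23.4 FPKM with NR6A1 and 32.2 FPKM with vector in clone 6. The 2 clone 12 libraries nearly coincided, and both lay below those of clone 6. Clone 12 minus clone 6 was -0.61 ± 0.13 log2 units (SE, limma adjusted p = 0.0446), a call that was lost under quantile scaling (adjusted p = 0.0534), without the variance trend (0.0685) and without the virus term (0.0741). As a result the ratio of Sp7 to Runx2 was 0.0169 with NR6A1 and 0.0256 with vector in clone 12, against 2.16 with NR6A1 and 3.73 with vector in clone 6. Runx2 has several annotated transcripts of different length and start, which these gene-level values do not separate.

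Promoter sequence was printed for Runx2, a member abundant in both lines, and for Msx2, the member whose value with NR6A1 lay furthest above its vector value. Both windows hold the 250 bases before the annotated start, 5′ to 3′ on the gene's strand, from RefSeq on GRCm38.p6, a later build than the mm9 of the expression values. The Runx2 window is chr17:44814628-44814877 on the minus strand, and its capitals mark a nuclear receptor half-site (AGGTCA) and, in reverse, the RUNX core (TGTGGT). The Msx2 window is chr13:53472781-53473030 on the minus strand, and its capitals mark the homeodomain core TAATTA.
Runx2: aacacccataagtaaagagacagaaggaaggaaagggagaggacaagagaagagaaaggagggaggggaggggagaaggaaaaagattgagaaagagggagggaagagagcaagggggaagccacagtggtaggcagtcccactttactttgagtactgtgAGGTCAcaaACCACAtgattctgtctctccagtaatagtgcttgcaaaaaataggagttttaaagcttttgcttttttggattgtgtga
Msx2: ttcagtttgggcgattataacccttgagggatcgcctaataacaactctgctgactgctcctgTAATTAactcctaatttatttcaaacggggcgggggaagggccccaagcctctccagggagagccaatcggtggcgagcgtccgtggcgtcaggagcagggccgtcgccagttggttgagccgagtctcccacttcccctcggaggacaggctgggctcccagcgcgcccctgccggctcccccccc

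Each motif was searched on both strands of the 32851 windows of the same length in the table. The half-site AGGTCA was found in 14.0% of them, the RUNX core TGTGGT in 14.0% and TAATTA in 4.84%. In Runx2 the half-site began 89 bases and the RUNX core 80 bases before the start. In Msx2 the homeodomain core began 187 bases before the start. Runx2, Msx1, Msx2 and Atf4 were the 4 members with an entry, and Sp7, Dlx3, Dlx5 and Dlx6 had none. The windows of Msx1 and Atf4 held neither these motifs nor TGATGCAA, an element bound by C/EBP and ATF dimers that was in 0.791% of windows. The extended half-site TCAAGGTCA, which NR6A1 can bind, was in 0.387% of windows and in none of the 4 members. A direct repeat of AGGTCA without spacer, the element NR6A1 is best known to bind, was in 2 windows (0.00609%), neither of them a member's. Matches are letters in a window and say nothing of binding.

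Msx1 and Msx2 differed between the lines in opposite directions. Msx1 was at 11.6 FPKM with NR6A1 and 11.2 FPKM with vector in clone 12, against 6.81 FPKM with NR6A1 and 5.07 FPKM with vector in clone 6. Msx2 was at 1.91 FPKM with NR6A1 and 1.53 FPKM with vector in clone 12, against 7.16 FPKM with NR6A1 and 3.60 FPKM with vector in clone 6. Msx1 was thus the higher gene of the pair by 6.06 times with NR6A1 and 7.32 times with vector in clone 12, while in clone 6 its ratio to Msx2 was 0.952 with NR6A1 and 1.41 with vector. Clone 12 minus clone 6 was 0.85 ± 0.12 log2 units for Msx1 (SE, limma adjusted p = 0.0269). For Msx2 it was -1.17 ± 0.20 log2 units (SE, limma adjusted p = 0.0346), a call lost without the virus term (adjusted p = 0.0706).

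Atf4 was the most abundant member in every library. It was at 367 FPKM with NR6A1 and 429 FPKM with vector in clone 12, against 279 FPKM with NR6A1 and 328 FPKM with vector in clone 6. Clone 12 was higher under each virus, by 0.39 ± 0.07 log2 units (SE, limma adjusted p = 0.0377). That call was lost without the variance trend (limma adjusted p = 0.0618) and without the virus term (limma adjusted p = 0.104).

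**Figure D1:**
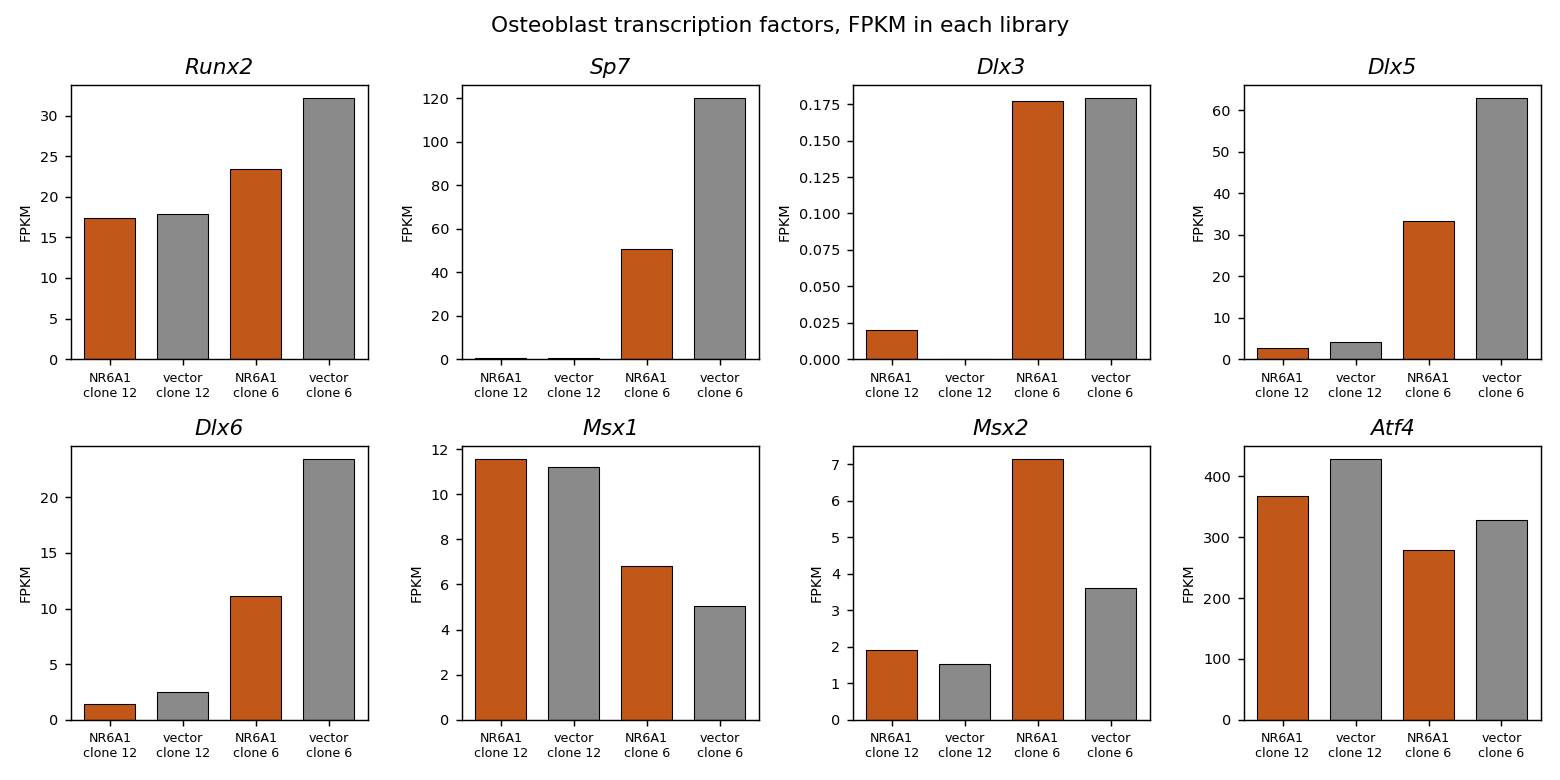
FPKM of the 8 osteoblast transcription factors, 1 bar per library (NR6A1 orange, vector grey; clone 12 on the left, clone 6 on the right), with a linear axis from 0 that differs between panels. Sp7 reaches 120.1 FPKM in clone 6 and at most 0.459 FPKM in clone 12, while Runx2 stays between 17.4 and 32.2 FPKM.

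Ranked by level, the members stood in different orders in the lines. In clone 12 the order was Atf4, Runx2, Msx1, Dlx5, then Dlx6 and Msx2, then Sp7 and Dlx3. Dlx6 and Msx2 changed places between the 2 clone 12 libraries, so that pair was not separated. In clone 6 the order was Atf4, Sp7, Dlx5, Runx2, Dlx6, then Msx1 and Msx2, then Dlx3. Within clone 6 the ranges of Sp7 and Dlx5 overlapped, those of Runx2 and Dlx6 touched at 23.4 and 23.5 FPKM, and Msx1 and Msx2 changed places.

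**Figure D2:**
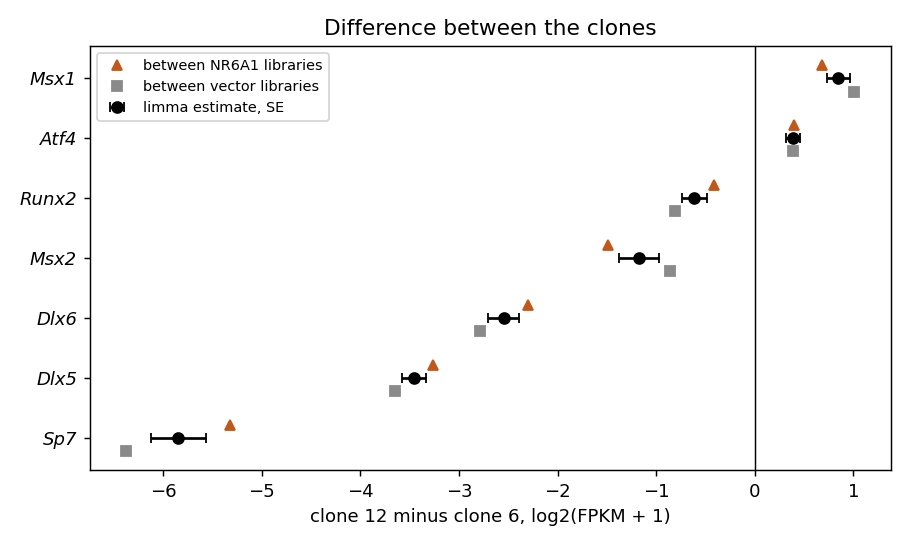
Difference between clone 12 and clone 6 on the log2(FPKM + 1) scale for the 7 tested members, as the limma estimate with its SE (black), between the NR6A1 libraries alone (orange triangles) and between the vector libraries alone (grey squares). Msx1 and Atf4 lie above 0, and the other 5 lie below, down to -5.85 for Sp7, with the same direction under both viruses.

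All 7 calls were lost when genes of any level were tested (adjusted p from 0.0798 to 0.119). Leaving out a library also removes the virus term, and limma then called 5 members without the NR6A1 library of clone 6, 1 without the vector library of clone 6, and none without the NR6A1 library or the vector library of clone 12, where 2630 genes had an unadjusted p under 0.05 without the NR6A1 library and 2200 without the vector library.

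With NR6A1, no member passed the test. By value, Runx2, Sp7, Dlx5, Dlx6 and Atf4 were lower in both clones, and Msx1 and Msx2 were higher in both. Over all genes 29.4% were lower in both clones and 28.9% were higher in both. None of the 7 tested passed the limma threshold over all genes, where 0.0353% were called, and 3 (Dlx5, Dlx6 and Atf4) had an unadjusted p under 0.05, against 8.48% of the genes tested. None passed either when short RNA genes were left out of the fit, where 0.457% of genes were called. The NR6A1 and vector libraries overlapped for all 7 members, since the clones lay apart, while 20.4% of genes did not overlap.

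Dlx5 and Dlx6 were lower with NR6A1 by similar ratios. Dlx5 was at 33.2 FPKM with NR6A1 against 62.9 FPKM with vector in clone 6, and at 2.56 FPKM with NR6A1 against 4.11 FPKM with vector in clone 12. The NR6A1 value was 0.528 of the vector value in clone 6 and 0.624 of it in clone 12. NR6A1 minus vector was -0.71 ± 0.12 log2 units (SE), with a limma adjusted p of 0.325, and 0.122 without short RNA genes. Dlx6 was at 11.1 FPKM with NR6A1 against 23.5 FPKM with vector in clone 6, and at 1.45 FPKM with NR6A1 against 2.54 FPKM with vector in clone 12. The NR6A1 share of the vector value was 0.473 in clone 6 and 0.573 in clone 12, close to those of Dlx5. NR6A1 minus vector was -0.77 ± 0.16 log2 units for Dlx6 (SE), with a limma adjusted p of 0.378, and 0.157 without short RNA genes.

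Sp7 differed mostly in the line that expressed it. It was at 50.6 FPKM with NR6A1 against 120.1 FPKM with vector in clone 6, 0.421 of the vector value and a change of -1.23 log2 units. In clone 12 it was at 0.294 FPKM with NR6A1 against 0.459 FPKM with vector, a ratio of 0.641 that rests on few reads. The fitted difference was -0.70 ± 0.28 log2 units (SE, limma adjusted p = 0.623). Runx2 was at 23.4 FPKM with NR6A1 against 32.2 FPKM with vector in clone 6, and at 17.4 FPKM with NR6A1 against 17.9 FPKM with vector in clone 12. Its mean over the 2 clones was 20.4 ± 4.28 FPKM with NR6A1 and 25.1 ± 10.1 FPKM with vector (SD, n = 2 each). Each SD holds the gap between the clones and is not a spread between repeat cultures. The Runx2 changes of -0.44 in clone 6 and -0.04 log2 units in clone 12 gave -0.24 ± 0.13 (SE, limma adjusted p = 0.646).

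Atf4 had nearly equal ratios in both lines. It was at 279 FPKM with NR6A1 against 328 FPKM with vector in clone 6, and at 367 FPKM with NR6A1 against 429 FPKM with vector in clone 12. The ratios were 0.849 in clone 6 and 0.855 in clone 12, and NR6A1 minus vector was -0.23 ± 0.07 log2 units (SE, limma adjusted p = 0.557).

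Both Msx genes were above their vector values, by little for Msx1 in clone 12. Msx2 was at 7.16 FPKM with NR6A1 against 3.60 FPKM with vector in clone 6, a ratio of 1.99, and at 1.91 FPKM with NR6A1 against 1.53 FPKM with vector in clone 12, a ratio of 1.25. NR6A1 minus vector was 0.51 ± 0.20 log2 units for Msx2 (SE, limma adjusted p = 0.617). Msx1 was at 6.81 FPKM with NR6A1 against 5.07 FPKM with vector in clone 6, and at 11.6 FPKM with NR6A1 against 11.2 FPKM with vector in clone 12. Its difference was 0.20 ± 0.12 log2 units (SE, limma adjusted p = 0.657), nearly all of it from clone 6.

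By size, 3 members (Sp7, Dlx5 and Dlx6) were lower with NR6A1 by at least 1.5-fold on the log2(FPKM + 1) scale in clone 6, where 3.39% of genes were, and 1 (Msx2) was higher, where 3.05% of genes were. In clone 12 no member passed 1.5-fold in either direction on that scale, against 2.50% of genes lower and 1.29% higher. By the plain ratio of FPKM, added after the data were seen, 3 members (Sp7, Dlx5 and Dlx6) were lower by at least 1.5-fold in clone 12 and none higher, where 3.66% of the genes above 0 in both libraries were lower and 1.81% higher. Each member's change on the log2(FPKM + 1) scale was larger in clone 6 than in clone 12, and with 1 library per clone and virus the difference between the clones' changes was not tested. The median over the 7 members was -0.44 log2 units in clone 6 and -0.17 in clone 12, beside 0.01 and -0.01 for all genes tested. The clone 12 median was the value of Sp7, which rests on few reads there. In RNA from whole cultures, fewer cells of a type and less RNA per cell cannot be told apart.

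**Figure D3:**
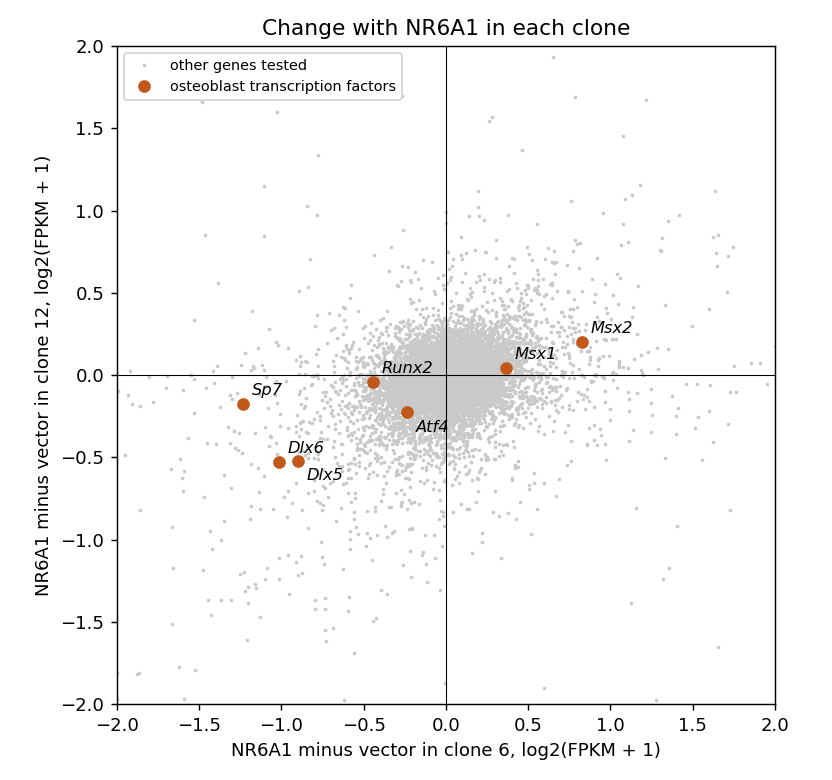
NR6A1 minus vector on the log2(FPKM + 1) scale in clone 6 (horizontal) and clone 12 (vertical), for the 7 tested members (orange) and the other genes tested (grey), of which 142 lie outside the limits of ±2. Sp7, Dlx5 and Dlx6 lie at the lower left, Msx2 lies at the upper right, and Msx1, Runx2 and Atf4 lie within 0.5 of 0 on both axes.

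Genes with the profile most like each member over the 4 libraries were found by the smallest distance between centred log2(FPKM + 1) values among 9112 genes of at least 5 FPKM. With 4 libraries such likeness is a description. Nearest to Sp7 were Hpgd (distance 0.644 log2 units), Fmod (1.02) and Pth1r (1.27), against a length of 5.91 for the Sp7 profile itself. Hpgd, which breaks down prostaglandins, was at 30.5 FPKM with NR6A1 and 82.6 FPKM with vector in clone 6, and at 0.352 FPKM with NR6A1 and 0.401 FPKM with vector in clone 12. Nearest to Dlx5 were the ephrin receptor gene Epha3 (0.293), the growth factor gene Gas6 (0.402) and the Wnt inhibitor gene Wif1 (0.473). Nearest to Dlx6 were Arhgef6 (0.162), the Notch modifier gene Lfng (0.261) and Srpx2 (0.315). For Runx2 the nearest were Inppl1 (0.0268), Lrrcc1 (0.0470) and Gpc4 (0.0632), for Msx1 Mfhas1 (0.0415), Dbndd2 (0.0431) and Map2k1 (0.0684), for Msx2 Adamtsl5 (0.181), Cotl1 (0.216) and Gnao1 (0.265), and for Atf4 Zfp280c (0.0396) and Ide (0.0457). Distances are shorter for members with a flatter profile, such as Atf4 with a length of 0.454.

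Among the other Dlx and Msx genes, Dlx1 and Dlx2 were the 2 tested. Both were also called lower in clone 12, beside 10.5% of all genes. For Dlx1 clone 12 minus clone 6 was -1.05 ± 0.18 log2 units (SE, limma adjusted p = 0.0342). Dlx2 was at 0.235 FPKM with NR6A1 and 0.593 FPKM with vector in clone 12, against 5.79 FPKM with NR6A1 and 5.11 FPKM with vector in clone 6 (clone 12 minus clone 6 -2.20 ± 0.20 log2 units, SE, limma adjusted p = 0.0179). With NR6A1 neither passed the test. Dlx1 was at 4.54 FPKM with NR6A1 against 3.94 FPKM with vector in clone 6, and at 1.28 FPKM with NR6A1 against 1.81 FPKM with vector in clone 12. Both genes were thus above vector in clone 6 and below it in clone 12. Dlx4 was at 0.295 to 0.379 FPKM in every library, and Msx3 at 0.0246 FPKM or less.

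Partners and inhibitors of Runx2 were mostly present in both lines. Of 15 tested, 3 were lower and 1 higher in clone 12, a share near the 21.9% of all genes called between the clones. Cbfb, the binding partner of all Runx proteins, was at 102 FPKM with NR6A1 and 98.1 FPKM with vector in clone 12, against 75.4 FPKM with NR6A1 and 92.4 FPKM with vector in clone 6. The coactivator gene Yap1 was the 1 called higher, at 230.4 FPKM with NR6A1 and 341 FPKM with vector in clone 12, against 44.9 FPKM with NR6A1 and 38.5 FPKM with vector in clone 6. The 3 lower genes, Hdac5, Hey1 and Maf, were named after their values were seen, as were Twist1 and Twist2. Twist2, which encodes a basic helix-loop-helix inhibitor of Runx2, was at 23.9 FPKM with NR6A1 against 10.3 FPKM with vector in clone 6. In clone 12 Twist2 was at 39.7 FPKM with NR6A1 against 37.0 FPKM with vector. Twist1, on the same list, was lower with NR6A1, at 25.8 FPKM against 29.4 FPKM with vector in clone 6. In clone 12 Twist1 was at 30.4 FPKM with NR6A1 against 34.6 FPKM with vector. With NR6A1 none of the 15 passed. By value 3 were higher and 6 lower in both clones, beside 28.9% and 29.4% of all genes. The median change was -0.02 log2 units in clone 6 and -0.05 in clone 12. Of 12 other transcription factors with roles in osteoblasts, 2 were higher (Cebpb and Ets1) and 1 lower (Vdr, the vitamin D receptor gene) in clone 12. With NR6A1 none of these passed either, with 3 higher and 5 lower in both clones, beside the same 28.9% and 29.4% of all genes.

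Of 14 tested BMP ligands, receptors, SMADs, inhibitors and Id genes, 7 were lower and none higher in clone 12, beside 10.5% lower and 11.5% higher of all genes. Bmp4, a ligand of bone formation, was at 40.8 FPKM with NR6A1 and 38.7 FPKM with vector in clone 12, against 131 FPKM with NR6A1 and 128 FPKM with vector in clone 6 (-1.68 ± 0.07 log2 units, SE, limma adjusted p = 0.00729). Id3, a BMP-responsive inhibitor of helix-loop-helix factors, was at 258 FPKM with NR6A1 and 365 FPKM with vector in clone 12, against 373 FPKM with NR6A1 and 455 FPKM with vector in clone 6. With NR6A1 none of the 14 passed. By value 8 were lower and 3 higher in both clones, beside 29.4% and 28.9% of all genes. The medians were -0.11 log2 units in clone 6 and -0.08 in clone 12.

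Of 25 tested amino acid response targets of ATF4, 12 were called higher and none lower in clone 12, and 13 did not pass, beside 11.5% of all genes called higher and 10.5% lower, and their median difference was 0.39 log2 units beside 0.04 for all genes. Psat1, of serine synthesis, was at 358 FPKM with NR6A1 and 391 FPKM with vector in clone 12, against 250 FPKM with NR6A1 and 287 FPKM with vector in clone 6. Ddit3, which encodes the stress factor CHOP and was picked with its values known, stood at 195 FPKM with NR6A1 and 280 FPKM with vector in clone 12, against 59.0 FPKM with NR6A1 and 43.4 FPKM with vector in clone 6. With NR6A1 the list was split, with 6 higher in both clones, 8 lower in both and 11 opposite between the clones. Over all genes 28.9% were higher and 29.4% lower in both. None of the 25 targets passed the threshold, and their medians were 0.02 in clone 6 and -0.07 log2 units in clone 12. Of the 8 kinases and regulators upstream of ATF4, 1 was higher (Eif2ak2) and 2 lower (Eif2ak1 and Eif2ak3) in clone 12, and with NR6A1 none passed, with 1 higher and 3 lower in both clones.

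The matrix, mineral and signalling genes of osteoblasts were called lower in clone 12 more often than higher. Of 17 tested, 9 were lower and 3 higher in clone 12, beside 10.5% and 11.5% of all genes. Of the genes given next, Ibsp, Pth1r and Bglap were named after their values were seen. Ibsp, which encodes bone sialoprotein, was listed at 0 in both clone 12 libraries, against 10.4 FPKM with NR6A1 and 61.7 FPKM with vector in clone 6. Pth1r, the parathyroid hormone receptor gene, was at 0.191 FPKM with NR6A1 and 0.197 FPKM with vector in clone 12, against 15.4 FPKM with NR6A1 and 52.2 FPKM with vector in clone 6. Bglap, which encodes osteocalcin, was at 0.235 FPKM with NR6A1 and 0.396 FPKM with vector in clone 12, against 3.86 FPKM with NR6A1 and 17.2 FPKM with vector in clone 6. Bglap has near-identical copies, so its reads may be shared with Bglap2, and the 9 lower genes count both. On the other side, Spp1, the osteopontin gene, was at 1157 FPKM with NR6A1 and 1794 FPKM with vector in clone 12, against 409 FPKM with NR6A1 and 254 FPKM with vector in clone 6. Col1a2, Sparc and Col1a1, named like Spp1 by highest mean FPKM, were at 522 FPKM or more in every library. Col1a1 was called lower in clone 12 (limma adjusted p = 0.0225). Col1a2 (limma adjusted p = 0.0501) and Sparc (limma adjusted p = 0.150) were not called.

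The window before Ibsp is shown because it belongs to the matrix gene read in clone 6 and listed at 0 in clone 12. It is chr5:104299037-104299286 on the plus strand of GRCm38.p6, from RefSeq, and its capitals mark the TATA box (TATAAA, in reverse), which began 28 bases before the start and was found in 12.4% of all windows.
Ibsp: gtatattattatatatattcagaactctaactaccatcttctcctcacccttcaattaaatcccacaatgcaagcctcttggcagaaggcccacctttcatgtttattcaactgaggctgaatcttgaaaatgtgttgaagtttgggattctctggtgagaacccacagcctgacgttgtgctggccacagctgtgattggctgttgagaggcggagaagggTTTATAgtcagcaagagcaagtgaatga
The letters TGTGGT and TAATTA were not in this window. Of the 16 genes on the list with an entry, TGTGGT was before Bglap (132 bases), Spp1 (128), Mmp13 (118) and Enpp1 (144).

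With NR6A1 the matrix and mineral genes were mostly lower in clone 6. Of 17 tested, 9 were lower and 5 higher by at least 1.5-fold in clone 6, beside 3.39% and 3.05% of all genes. The 9 lower again count both Bglap and Bglap2. In clone 12, 3 were lower and 1 higher, beside 2.50% and 1.29% of all genes. The medians were -0.60 log2 units in clone 6 and -0.15 in clone 12. None passed the limma threshold over all genes, and 2 (Alpl and Phospho1) passed as lower without short RNA genes. Smpd3, Omd, Postn and Mmp13 are given with their values known. Smpd3, which encodes a sphingomyelinase needed for bone mineral, stood at 5.12 FPKM with NR6A1 against 23.7 FPKM with vector in clone 6, and at 1.99 FPKM with NR6A1 against 2.20 FPKM with vector in clone 12. Omd, the osteomodulin gene, was at 13.8 FPKM with NR6A1 against 38.0 FPKM with vector in clone 6, and at 1.97 FPKM with NR6A1 against 2.97 FPKM with vector in clone 12. Both were lower in each line, as Sp7 and Dlx5 were. Postn was higher in each line, at 166 FPKM with NR6A1 against 95.6 FPKM with vector in clone 6. In clone 12 Postn was at 78.1 FPKM with NR6A1 against 23.5 FPKM with vector. Mmp13, a collagenase gene, was at 30.4 FPKM with NR6A1 against 9.36 FPKM with vector in clone 6, and at 9.87 FPKM with NR6A1 against 11.7 FPKM with vector in clone 12. None of the 4 osteocyte markers reached 1 FPKM, and Sost and Mepe were listed at 0 in every library.

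**Figure D4:**
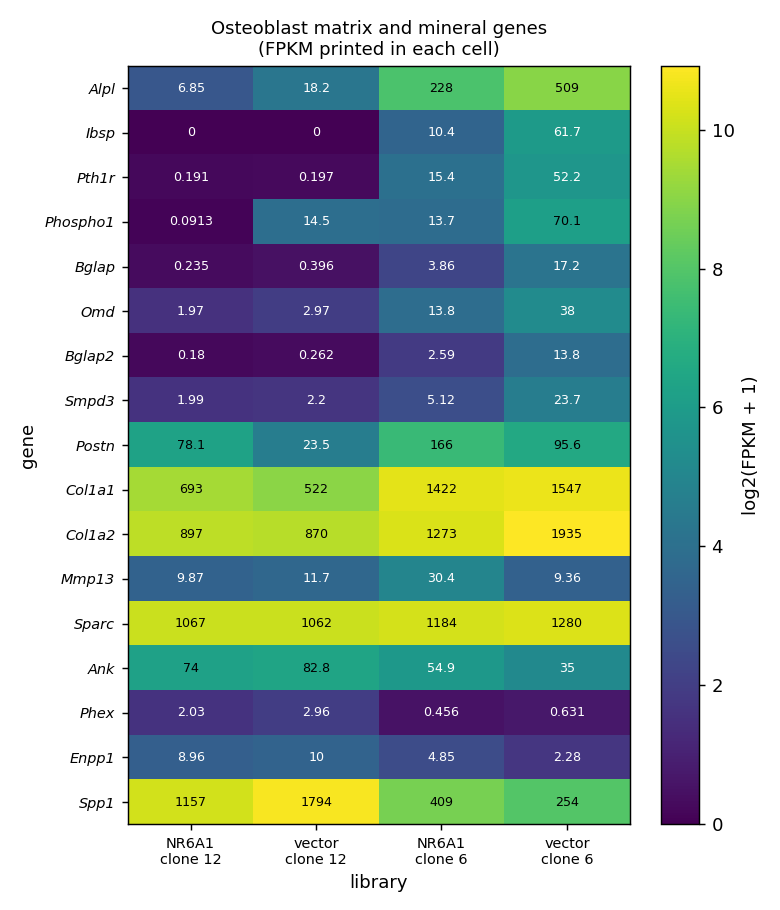
FPKM (printed) and log2(FPKM + 1) (colour) of the 17 tested matrix and mineral genes in each library, ordered by clone 12 minus clone 6 from the lowest at the top. Ibsp, Pth1r and Bglap are above 3.8 FPKM in both clone 6 libraries and below 0.4 FPKM in both clone 12 libraries, while Spp1 is highest in clone 12.

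Genes of neighbouring lineages were read as well. Of the transcription factors of cartilage, fat and muscle, Myod1 and Myf5 were listed at 0 in every library, and Pparg, of fat, was at 27.0 FPKM with NR6A1 and 29.6 FPKM with vector in clone 12, against 31.8 FPKM with NR6A1 and 40.4 FPKM with vector in clone 6. Cebpa, also of fat, was lower in clone 12 (-1.88 ± 0.26 log2 units, SE, limma adjusted p = 0.0269), the 1 of 4 tested on that list to be called, and with NR6A1 none of the 4 passed. Summed over 5 cartilage markers, the level was 1.27 FPKM with NR6A1 and 0.989 FPKM with vector in clone 12. In clone 6 it was 6.92 FPKM with NR6A1 and 7.21 FPKM with vector. The 3 tested, Col2a1, Col10a1 and Matn3, were called lower in clone 12, beside 10.5% of all genes. All 3 were below 1 FPKM in clone 12. Acan and Matn1 were at or below 0.0982 FPKM in every library, and Acan was higher in clone 12 by value. The 5 fat cell markers summed to 73.3 FPKM with NR6A1 and 79.4 FPKM with vector in clone 12, against 130 FPKM with NR6A1 and 286 FPKM with vector in clone 6, nearly all from Fabp4, with Lep at 0. The 3 tested cartilage markers and Fabp4 were lower in clone 12, as Sp7, Dlx5 and Dlx6 were. Fabp4 was also lower with NR6A1 in clone 6, as Sp7, Dlx5 and Dlx6 were. The other fat cell markers were at or below 0.318 FPKM in every library and were not tested. The part of the cartilage and fat markers in either result was not tested.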

How the data were processed

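RNA from 4 cultures was sequenced, and the authors deposited 1 table of FPKM values per gene, made with TopHat 1.2.0 and Cufflinks 1.0.3 on mm9, per the submitters' processing notes. Annotation and strandedness: not given in the sources used here. Steps between low values gave the depth. Of values under 10 reads, 51.3 to 53.3% came within 0.1 of a whole number, where 20% would by chance, so whole reads were not recovered and no count test was run.

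Genes averaging at least 1 FPKM were tested with limma 3.58.1 in R 4.3.3 on log2(FPKM + 1), with a variance trend and two-sided p-values adjusted by Benjamini-Hochberg over all 11346 genes (threshold 0.05). NR6A1 was compared with vector with the clone as block, and clone 12 with clone 6 with the virus as a term. Libraries of 1 clone come from the same line, which pairs them, and their deviations from the group means had a correlation of 0.63. The steps were tested on simulated data. Members and gene lists were chosen with earlier results of these data known. Apart from members, up to 4 genes per list were named by highest mean FPKM. Genes called in a list were also named in places, such as Ets1, Vdr and Eif2ak3, so with their values known. Some others are said to be picked with values known. Alternatives changed the scaling, pseudocount, filter, trend, prior, block, threshold and libraries, and left out 197 short RNA genes. One gene that the likeness rule named is not reported here.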

Additional observations from a re-analysis of the deposited data

Results flagged for a closer look

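No member changed in opposite directions between the clones by at least 0.1 log2 units in each. Among the other genes named, 15 did, and the difference between the clones was not tested for any of them. Each value below is NR6A1 minus vector in clone 6 less the same change in clone 12, on the log2(FPKM + 1) scale. Of the Dlx relatives, Dlx2 differed by 0.52 and Dlx1 by 0.47. Of the partners of Runx2 and other bone factors, Yap1 differed by 0.78, Fosl1 by 0.81 and Hey1 by -0.79. Of the matrix genes, Mmp13 differed by 1.82, Enpp1 by 0.98 and Spp1 by 1.32, with 409 FPKM with NR6A1 against 254 FPKM with vector in clone 6 and 1157 FPKM with NR6A1 against 1794 FPKM with vector in clone 12. Col1a1 differed the other way, by -0.53. The BMP-responsive gene Id1 differed by 0.74, the kinase gene Eif2ak2 by 0.48, Ddit3 by 0.96 and the serine synthesis gene Phgdh by 0.47. Of the factors of other lineages, Cebpa differed by 1.01 and Sox9 by 1.21.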

How the results depend on the processing

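No value for a member turned its direction under any alternative run. For the single members, 125 tested settings kept the side of the threshold and 13 lost a clone call. The limma count for NR6A1 against vector was 4 genes, and became 25 at a false discovery rate of 0.1, 7 with a pseudocount of 5, 2 with no filter, 51 without short RNA genes and 38 with a robust prior. Without the replicate block it was 4. Leaving out any 1 library without the block gave 0 to 0 genes, with 96 to 286 at an unadjusted p under 0.05. No member was called in any of these.

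The limma count between clone 12 and clone 6 was 2490 genes, and became 4163 at a false discovery rate of 0.1, 1581 without the trend and 0 with no filter, where 5360 had an unadjusted p under 0.05. Of the members, 7 were called, against 0 with no filter and 4 without the virus term. Leaving out 1 library, with no virus term, gave 41 to 889 genes and 0 to 5 members. The NR6A1 library of clone 6 left out gave 889 genes and 5 members, the vector library of clone 6 gave 110 genes and 1 member, the NR6A1 library of clone 12 gave 64 genes and 0 members, and the vector library of clone 12 gave 41 genes and 0 members. With a mean of at least 5 FPKM, Msx2 was not tested. The cause of these shifts was not tested.

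On the log2(FPKM + 1) scale, 4 members passed 1.5-fold with NR6A1 in clone 6 and 0 in clone 12, where the plain ratio, chosen after seeing the data, gave 3 (Sp7, Dlx5 and Dlx6). With the pseudocount, 2 passed in clone 6 at a fold of 2 (Sp7 and Dlx6) and 2 in clone 12 at a fold of 1.2 (Dlx5 and Dlx6). With the block kept, leaving out 1 library leaves the change in the other clone, with no test. Depth limits Sp7 in clone 12 and Dlx3 in both lines.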
